A study of Camellia sinensis with 15 samples.

Results

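CSS0006162 is a tea plant gene that the study assigns to the HIPPs, the heavy metal-associated isoprenylated plant proteins. It was taken by its identifier from the deposited expression values of tea roots, as 1 gene of 59128. Its HIPP identity rests on the study's text, which is not uniform. The results and conclusions call it a HIPP, while a passage of the discussion also lists it among the galactinol synthases. Read in order, the study's list of Arabidopsis orthologs pairs AtHMP41 with CSS0001107 and a galactinol synthase with CSS0006162. The gene models and the RefSeq gene table used here hold 0 identifiers of its CSS series, so its position and sequence were not analysed here, and no other HIPP gene could be picked out. The roots came from 2-year-old potted seedlings of the wild-type cultivar Fuding Dabaicha. The control group (CK) was untreated. Plants of the other groups had been given a solution of cadmium (Cd, as Cd(II)) or arsenic (As, as As(V)) at 120 mg/kg and were sampled, by the study's methods, at 10 d (Cd1 and As1) or 15 d (Cd2 and As2). Day 15 is the time on all labels, those of CK and the 10 d groups included, and the methods state no day for CK, so the metal and the day of sampling cannot be told apart where a 10 d group is compared with CK. The labels name 3 libraries in each group. For all 59128 genes, however, the library labelled Cd1 replicate 3 repeats the values of Cd2 replicate 1, and its header names Cd2 replicate 1. The study's sequencing summary gives Cd1 replicate 3 read and gene counts that differ from those of Cd2 replicate 1. The repeated library was counted once, under Cd2. There were thus 14 libraries, of which Cd1 had 2 and each other group 3.

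HIPPs carry a heavy-metal-associated domain, whose cysteines bind metal ions, and a C-terminal motif to which an isoprenyl lipid is attached. They are known as metallochaperones that bind and hand on metals such as copper, zinc and cadmium, and members of the family have been linked to cadmium tolerance in Arabidopsis. The study names CSS0006162 together with genes of galactinol and raffinose synthesis, of abscisic acid synthesis and of the ERF transcription factors.

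The values are FPKM, in which the fragment count of a gene is scaled to its length and to the size of the library, so levels of different genes can be compared per length. Whole fragments were recovered from them and came to between 10482950 and 13846613 per library (median 12179460.5). The 10 d libraries held 11605980 to 13846613 fragments and the 15 d libraries 10482950 to 12995424, so the times overlapped in depth. Between 35674 and 39868 genes were above 0 in a library. The range was 35674 to 39745 genes at 10 d and 37933 to 39579 at 15 d. RNA of whole roots was measured, in which fewer cells of a type and less RNA per cell cannot be told apart. The root tissue was not checked against marker genes, since the files give no gene names.

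CSS0006162 was at a high level in untreated roots, within the top 4.17% of genes above 0 by group mean. It was far lower at 10 d under either metal and above the untreated level at 15 d under either metal. In CK, its FPKM was 106 in replicate 1, 62.8 in replicate 2 and 75.8 in replicate 3. In Cd1, it was 2.60 in replicate 1 and 2.14 in replicate 2. In As1, it was 2.60 in replicate 1, 2.66 in replicate 2 and 0.370 in replicate 3. The 10 d libraries were thus all far below CK, and As1 replicate 3 lay lowest of all. In Cd2, the FPKM was 230, 224 and 233 in replicates 1, 2 and 3. In As2, it was 366, 236 and 185. No library at 15 d fell within the range of CK, and none at 10 d came near it. The mean FPKM of CK was 81.6 ± 22.3 (SD, n = 3). At 10 d, the mean of Cd1 was 2.37 ± 0.320 (n = 2) and that of As1 was 1.88 ± 1.31 (n = 3). At 15 d, the mean of Cd2 was 229 ± 4.93 (n = 3) and that of As2 was 262 ± 93.5 (n = 3).

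**Figure D1:**
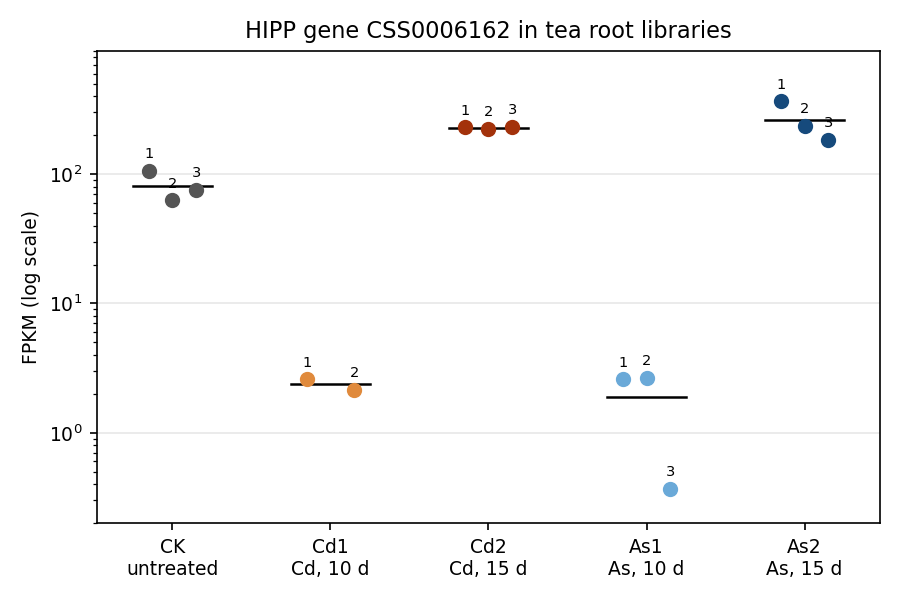
FPKM of CSS0006162 on a log axis in the 14 libraries, with 1 point per library (numbers are replicates) and a line at each group mean. The 5 libraries at 10 d lie between 0.370 and 2.66, the 3 CK libraries between 62.8 and 106, and the 6 libraries at 15 d between 185 and 366.

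From the highest group mean to the lowest, the order was As2, Cd2, CK, Cd1 and As1. The neighbours As2 and Cd2 overlapped, since all 3 Cd2 libraries lay inside the range of As2. Cd1 and As1 overlapped as well, with both Cd1 libraries inside the range of As1. CK stood apart from both pairs. The ratio of the highest to the lowest single library was 989, and that ratio rested on As1 replicate 3 and As2 replicate 1.

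The fragments behind these values show how well each level was counted. In the 5 libraries at 10 d, 108 fragments of CSS0006162 were recovered in all, against 2431 in the 3 CK libraries and 14739 in the 6 libraries at 15 d. As1 replicate 3 held 4 fragments (exact 95% Poisson interval 1.09 to 10.2), whereas As1 replicates 1 and 2 held 26 each (17.0 to 38.1). Cd1 replicates 1 and 2 held 29 (19.4 to 41.6) and 23 (14.6 to 34.5). These intervals cover counting error only. The gene was therefore detected in each of the 14 libraries, and the low value of As1 replicate 3 lay outside the counting error of the other As1 libraries. Scaled to the recovered total of each library (FPM, without length), the gene was at 0.299 to 2.16 FPM at 10 d, at 50.6 to 85.7 FPM in CK and at 147 to 327 FPM at 15 d.

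In rank among all genes, CSS0006162 moved from the upper part of the expressed genes to below the middle and then to near the top. By group mean, it ranked 1795 of 43022 genes above 0 in CK, 22948 of 41123 in Cd1 and 23835 of 41199 in As1. It ranked 354 of 42837 genes in Cd2 and 328 of 42634 in As2, or within the top 0.826% and 0.769%. The rank in As2 rested in part on replicate 1, without which it was 525, and in single As2 libraries the gene lay within the top 0.387%, 1.198% and 1.58%. In single libraries, the rank lay between 1313 and 2563 in CK, between 21135 and 32372 at 10 d and between 152 and 601 at 15 d. Against the median gene above 0 in the same group, its FPKM was 26.3 times as high in CK. The ratio was 0.722 in Cd1 and 0.621 in As1, and 75.0 in Cd2 and 83.8 in As2.

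**Figure D2:**
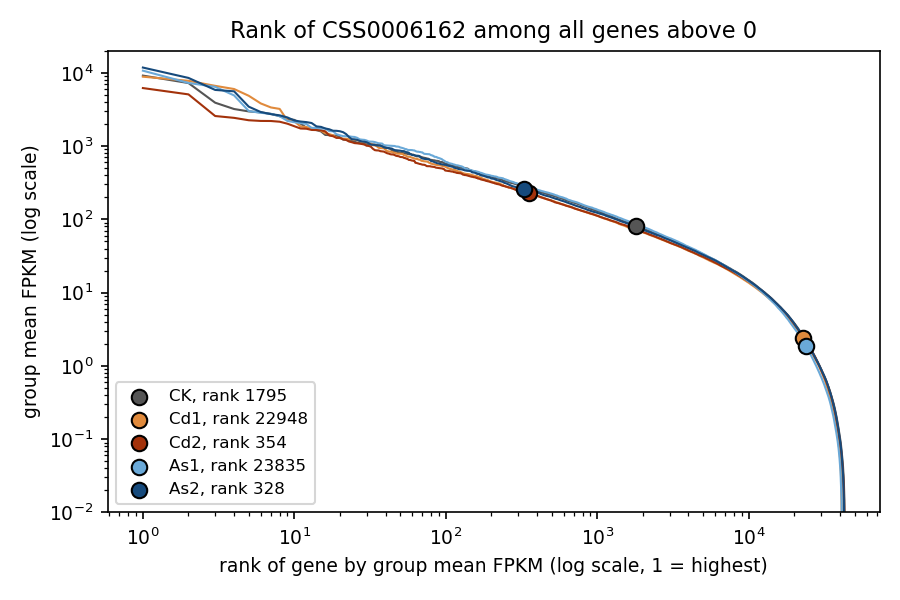
Group mean FPKM of every gene above 0 against its rank, both on log axes, with 1 curve per group and CSS0006162 marked on each. The curves nearly coincide, and the marked gene lies at ranks 328 and 354 at 15 d, at 1795 in CK and at 22948 and 23835 at 10 d.

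The comparison with CK asks whether the level of the gene in each treated group differed from that in the untreated roots. Log2(FPKM + 1) of 33109 genes was fitted with limma-trend. A gene was called a DEG (differentially expressed gene) where the fold change exceeded 1 on the log2 scale in either direction and the false discovery rate, by Benjamini-Hochberg adjustment, was below 0.05. On this scale the fold change understates that of low values. The study picked CSS0006162 for its pattern in these same libraries, so the tests below are not independent evidence for that pattern. The study also measured the gene by qRT-PCR and reports a generally similar outcome. Those measurements were not used here. The p-values weigh a difference against the spread between these samples, and nothing states that the samples came from separate plants. For limma-trend, 1 spread per gene is shared by all 5 groups. The SD of log2(FPKM + 1) of CSS0006162 within a group ran from 0.031 in Cd2 to 0.812 in As1.

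At 10 d, CSS0006162 was a DEG lower than in CK under both metals. The CK mean FPKM was 34.4 times the mean of Cd1 and 43.4 times the mean of As1, or 31.0 times the As1 mean without As1 replicate 3. For Cd1 vs. CK, a log2 fold change of -4.58 ± 0.392 was found (SE; adjusted p = 0.000349 from limma-trend), and 2.73% of the tested genes were called lower there. By p-value, the gene ranked 1 of 33109 in Cd1 vs. CK, and by size of change it ranked 23. In As1 vs. CK, the log2 fold change was -4.94 ± 0.351 (adjusted p = 5.56e-05), and 1.28% of the tested genes were called lower. It ranked 2 by p-value and 3 by size there. Over the 5 libraries at 10 d, the mean log2(FPKM + 1) differed from that of CK by -4.80 (exact permutation test, two-sided p = 0.0179, the smallest that 56 regroupings can give; adjusted over 3 such tests, 0.0179).

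At 15 d, all 6 libraries lay above all 3 CK libraries, but neither metal alone passed the threshold by limma-trend. The study, at the same limits, counts the gene among the DEGs of every comparison with CK and calls it significantly increased at 15 d. Its calls came from its own pipeline, which differs from the fit used here. The mean FPKM was 2.81 times that of CK in Cd2 and 3.21 times in As2. In Cd2 vs. CK, the log2 fold change was 1.51 ± 0.351 (SE; adjusted p = 0.144 from limma-trend, unadjusted p = 0.000866). In As2 vs. CK, it was 1.65 ± 0.351 (adjusted p = 0.148, unadjusted p = 0.000426). Without As1 replicate 3, which is in neither comparison but adds to the shared spread, the adjusted p from limma-trend was 0.0786 (Cd2) and 0.0752 (As2). Over all alternative settings of the fit, the adjusted p lay between 0.0721 and 0.647 for Cd2 and between 0.0752 and 0.752 for As2. Few genes passed at 15 d against CK. Under Cd, 0.00302% of the tested genes were called higher and 0.0302% lower, and under As 0.00604% were called higher and 0.00906% lower. Over both metals together, the 15 d libraries were higher than CK by 1.58 on the log2 scale (exact permutation test, two-sided p = 0.0119, the smallest that 84 regroupings can give; adjusted p = 0.0179), in 6 of 6 libraries. All these comparisons share the same CK libraries.

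The fold change from 10 d to 15 d and its permutation test use no CK library. The limma-trend p-values do draw on CK, through the spread shared by all 5 groups. With no untreated roots sampled at both times, the length of exposure cannot be told apart from the day of sampling. CSS0006162 was a DEG higher at 15 d under both metals. The mean FPKM rose 96.6-fold from Cd1 to Cd2 and 140-fold from As1 to As2. The smallest ratio of a 15 d library to a 10 d library was 86.1 under Cd and 69.4 under As. The log2 fold change was 6.10 ± 0.392 (SE) in Cd2 vs. Cd1 (adjusted p = 3.36e-05 from limma-trend), with 1.21% of the tested genes called higher. In As2 vs. As1, it was 6.59 ± 0.351 (adjusted p = 1.61e-06), with 1.56% called higher. Permuted within each metal, the 15 d against 10 d difference of 6.34 had an exact permutation p of 0.005 (two-sided, the smallest that 200 regroupings can give; adjusted p = 0.015).

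Among the 33109 tested genes, this was one of the largest changes between 10 d and 15 d. By absolute log2 fold change, the gene ranked 1 under As and 2 under Cd. By p-value, it ranked 2 under As and 1 under Cd. The rank by size under Cd depended on single libraries and on the pseudocount: it was 6 without Cd1 replicate 2, 4 without Cd2 replicate 1, 1 without Cd2 replicate 3 and 7 with a pseudocount of 0.1. Under As it was 3 without As2 replicate 2. The gene above it under Cd, CSS0009715, which the files leave unannotated, had a log2 fold change of 6.67. Its FPKM was 0 and 0.396 in the Cd1 libraries and 31.8, 137 and 384 in the Cd2 libraries, so these groups did not overlap. Among the CK libraries it ran from 1.47 to 192. When each gene was taken by the smaller of its changes under the 2 metals, at a pseudocount of 1, CSS0006162 ranked 1 with 6.10. The next gene, CSS0044037, had 4.88.

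Large changes shared by both metals went nearly all in 1 direction. A log2 fold change over 3 was found under both metals for 34 genes that were higher at 15 d and for 0 genes that were lower. Over 4, there were 11 genes, and over 5 there was CSS0006162 alone. Both calls of a higher level at 15 d were made for 0.501% of the tested genes. CSS0006162 had a range of group means of 6.59 on the log2 scale, which ranked 5 of 33109, against a median of 0.726.

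**Figure D3:**
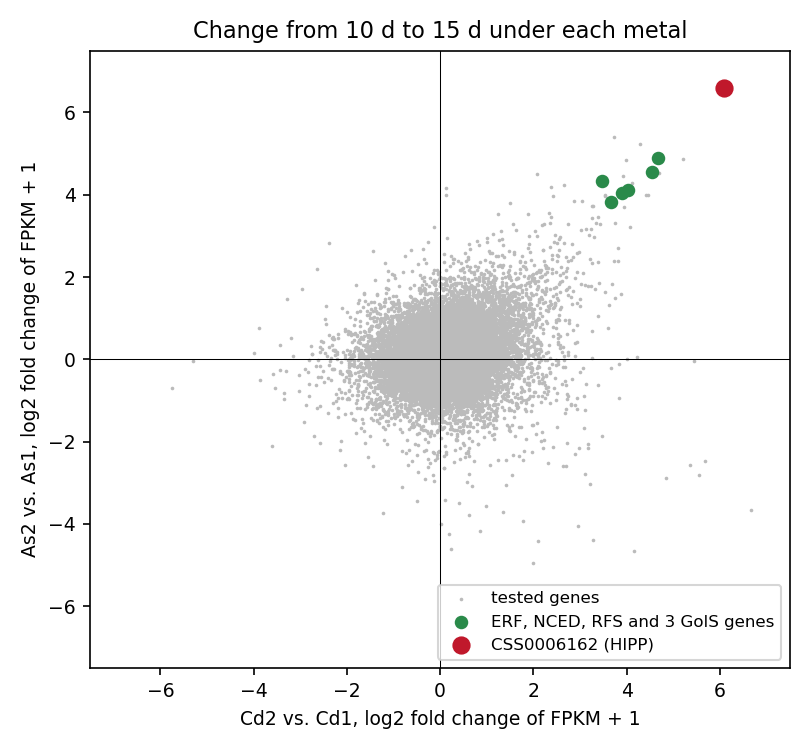
Log2 fold change of FPKM + 1 from 10 d to 15 d under Cd (horizontal axis) and under As (vertical axis), with 1 grey point for each of the 33109 tested genes. CSS0006162 (red) lies at 6.10 and 6.59, beyond the 6 genes named with it (green), which lie between 3.48 and 4.68 under Cd and between 3.82 and 4.89 under As.

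Cd and As were not told apart by this gene. At 10 d, the log2 fold change of Cd1 vs. As1 was 0.36 (95% interval -0.49 to 1.21, adjusted p = 0.673 from limma-trend). Its sign rested on As1 replicate 3, without which it was -0.11. Of the tested genes, 1.63% were called in this comparison, and 0.309% to 2.69% with single libraries left out. At 15 d, the log2 fold change of Cd2 vs. As2 was -0.14 (95% interval -0.89 to 0.62, adjusted p = 0.916), and it was 0.13 without As2 replicate 1. Here 0.00302% of the tested genes were called. The intervals thus leave room for differences of up to 1.21 log2 units at 10 d and 0.895 log2 units at 15 d. The change from 10 d to 15 d was larger under As than under Cd by 0.49 (95% interval -0.64 to 1.63, adjusted p = 0.763), a difference that did not pass the test and that was 0.026 without As1 replicate 3. For comparison, 0.275% of the tested genes, or 91, passed the test of this metal by time difference, a count that fell to 21 without Cd1 replicate 1 and was 318 without As2 replicate 2.

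The study's text names 6 other genes with the same course, low at 10 d and high at 15 d. They comprise CSS0000647, an AP2/ERF transcription factor, CSS0033791, a 9-cis-epoxycarotenoid dioxygenase (NCED) of abscisic acid synthesis, and CSS0050491, a raffinose synthase (RFS). The others are CSS0001107, CSS0019367 and CSS0035212, which the study's results call galactinol synthases (GolS). Such enzymes make the galactosyl donor that raffinose synthase uses. The study chose these genes on the same libraries, so their agreement in direction is a description. Of the 6, all were called lower at 10 d than in CK by limma-trend, where 2.73% (Cd) and 1.28% (As) of the tested genes were called lower. Limma-voom on recovered fragments called 5 of the 6 under each metal. It called 472 (Cd) and 314 (As) of the 33109 tested genes in either direction. All 6 were called higher at 15 d than at 10 d under each metal by both methods, against 1.21% (Cd) and 1.56% (As) of the tested genes by limma-trend. Limma-voom called 286 (Cd) and 529 (As) of the 33109 tested genes between the times in either direction. At 15 d against CK, all 6 were higher in value but 0 were called by limma-trend. Limma-voom also called 0 of the 6, and it called 5 (Cd) and 3 (As) of all tested genes. By limma-trend, all 6 had an unadjusted p under 0.05 and a log2 fold change over 1 under each metal. Both limits, in either direction, were met by 1625 (Cd) and 1057 (As) of the 33109 tested genes.

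CSS0006162 changed more than each of them between the times. The median log2 fold change of the 6 genes was 3.96 under Cd and 4.23 under As, against 0.019 and 0.039 for all tested genes. The largest were those of CSS0035212, at 4.68 ± 0.372 (SE; adjusted p = 0.00011 from limma-trend) and 4.89 ± 0.333 (adjusted p = 1.6e-05). By size among the 7 genes, the fall of CSS0006162 against CK at 10 d took position 1 under either metal. Its log2 fold change at 15 d against CK took position 2 under Cd and position 3 under As, where CSS0000647 led in both with 1.81 and 1.79. Whether its change differed from those of the other genes was not tested.

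In level, CSS0006162 and the galactinol synthase CSS0035212 were the highest of the 7 genes in every CK and 15 d library. At 10 d, CSS0006162 took position 4 in 4 libraries and position 6 in As1 replicate 3, below all 3 galactinol synthases by group mean. Of these, CSS0001107 had a mean FPKM of 5.18 in Cd1 and 5.30 in As1, and CSS0019367 of 5.34 and 3.13. The mean FPKM of CSS0035212 was 82.5 ± 23.7 (SD, n = 3) in CK. It was 7.58 ± 2.25 (n = 2) in Cd1 and 6.99 ± 2.65 (n = 3) in As1, and 216 ± 21.4 (n = 3) in Cd2 and 247 ± 127 (n = 3) in As2. In CK, the ratio of CSS0006162 to CSS0035212 was 0.691 to 1.46, and at 15 d the lowest ratio was 0.933 and the highest 1.203. At 10 d it was 0.0761 to 0.434. The pair was thus near parity except at 10 d, when CSS0006162 was the lower in every library. For 5 of the 6 genes, the ratio of CSS0006162 to the other gene was lower in all 5 libraries at 10 d than in any CK or 15 d library. For the NCED gene CSS0033791 this held in 4 of the 5.

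Within groups, the order of the libraries was shared among the 7 genes at some positions and not at others. As2 replicate 1 had the highest level in As2 for CSS0006162 and for all 6 other genes. CK replicate 2 had the lowest level in CK for CSS0006162 and for 5 of the 6. As1 replicate 3 had the lowest level in As1 for CSS0006162 and for 4 of the 6. In Cd2, the highest library of CSS0006162 was also the highest for 5 of the 6 and its lowest for 4. Its highest library was shared by 1 of the 6 in CK and by 1 in As1, its lowest by 2 in As2, and both of its positions by 3 in Cd1. As2 replicate 1 was also the smallest library, with 10482950 fragments. CK replicate 2 held 10898660 fragments, the fewest in CK, and As1 replicate 3 held 13367821, the most in As1. The part of depth in this order was not tested.

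**Figure D4:**
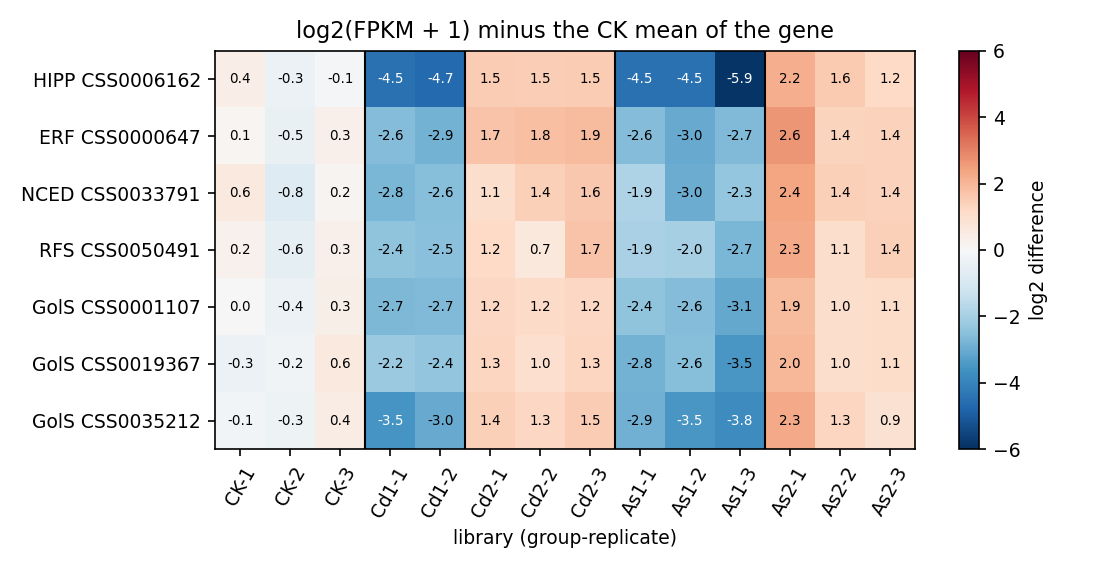
Log2(FPKM + 1) of CSS0006162 and the 6 genes named with it in each of the 14 libraries, minus the CK mean of the same gene. Every gene is below CK in the 5 libraries at 10 d and above it in the 6 libraries at 15 d, and CSS0006162 is the lowest at 10 d, with -4.5 to -5.9.

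To find the genes most like CSS0006162, each gene was written as its difference from its own CK mean of log2(FPKM + 1) in the 11 treated libraries, and the root mean square difference between the courses of 2 genes was taken. The median over 33108 genes was 3.49, close to the 3.47 by which CSS0006162 itself departed from CK. The most alike was CSS0044037, an unannotated gene, at 0.947, and the next was the GolS gene CSS0035212 at 1.03. CSS0044037 was the only gene under 1, and 46 genes were under 2. Its mean FPKM was 36.0 in CK, 0.494 and 0.841 at 10 d under Cd and As, and 55.4 and 55.2 at 15 d. The other genes named by the study took positions 12 (CSS0019367), 13 (CSS0000647), 14 (CSS0001107), 22 (CSS0033791) and 27 (CSS0050491). For the opposite course, turned in sign, 0 genes were under 2, and the nearest were CSS0033696 at 2.08 and CSS0010047 at 2.27.

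Without overlap of any libraries, 29 genes, or 0.0876% of those tested, had every 10 d library below and every 15 d library above every CK library. CSS0006162 and the 6 genes named with it were 7 of these 29. Each part alone, which cannot be rarer, held for 5.87% of the tested genes (below CK in every 10 d library) and 1.90% (above CK in every 15 d library). Whether the parts coincided more often than these shares alone would give was not tested. By calls, 70 genes (0.211%) were lower in Cd1 vs. CK and As1 vs. CK and higher in both comparisons of 15 d with 10 d, the 7 genes among them.

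The study's text names 15 further genes in these roots, 8 of them MYB, 5 AP2/ERF and 1 bHLH transcription factors and 1 a CBL calcium sensor. Between 10 d and 15 d, 0 of them were called under either metal by limma-trend or limma-voom. Of all tested genes, 1.53% (Cd) and 2.10% (As) were called by limma-trend in either direction, so 0 of 15 lies near that share. Limma-voom called 286 (Cd) and 529 (As) of the 33109 tested genes. At an unadjusted p under 0.05, there were 4 under Cd and 2 under As. The last of the 4 by p-value, CSS0018401 (unadjusted p = 0.043 from limma-trend), ranked 4431 of 33109 under Cd. The last of the 2, CSS0000442 (unadjusted p = 0.0447), ranked 5667 under As, so passing this limit was common among all genes. All 15 were tested. Their median log2 fold change was 0.41 under Cd and 0.30 under As. At 10 d under Cd, 6 were called lower than CK by limma-trend, against 2.73% of the tested genes, and 1 was called higher, the bHLH gene CSS0041447, against 0.453%. Limma-voom called 4 of the 15 there in either direction, against 472 of the 33109 tested genes. At 10 d under As, 5 were called lower by limma-trend (CSS0009309, CSS0030465, CSS0032956, CSS0034513 and CSS0043971), against 1.28% of the tested genes, and the AP2/ERF gene CSS0018401 was called higher, against 0.338%. Limma-voom called 5 of the 15 there, against 314 of the 33109 tested genes in either direction. These genes were picked for naming after their values were seen. Against CK at 15 d, the MYB gene CSS0030465 was called lower under both metals and the AP2/ERF gene CSS0043971 under Cd by limma-trend. Of the tested genes, 0.0302% (Cd) and 0.00906% (As) were called lower there. Limma-voom called 1 of the 15 under each metal, against 5 (Cd) and 3 (As) of all tested genes in either direction.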

How the data were processed

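Reads were trimmed by the authors, aligned to a Camellia sinensis genome with HISAT, and summarised as the deposited FPKM values, 1 per gene and library. Tool versions and the genome build are not given in the sources used here. No further scaling was applied, because the libraries' median ratios to a geometric mean reference were close together (1.0124 to 1.016). FPKM moves in steps, whose size depends on gene length and library, and from these whole fragments were recovered (within 0.02 fragments) for 44418 of the 44418 genes above 0 in at least 2 libraries. Genes that reached an FPKM of 1 in 3 or more libraries were tested on log2(FPKM + 1) with limma 3.58.1 (R 4.3.3), with trend and all 5 groups in a single model. Ranks and exact permutation tests were computed in Python 3.11.15 with scipy 1.17.1, pandas 2.3.3 and numpy 2.4.6. The methods were tested on simulated data. Named by rule were CSS0006162, the genes the study's text names, up to 2 genes most like it and up to 2 most opposed, and up to 2 genes per metal ranking above it in change. The genes, lists and tests were chosen with earlier results of these data known. In all, 27 settings were fitted, with pseudocounts of 0.1 and 0.5, other filters on low FPKM, quantile and median-ratio scaling, limma-voom on recovered fragments, a fit without variance trend, fits of the compared groups alone, a replicate block, each library left out in turn, and the duplicated library left out or kept under both labels. Ranks within groups were also taken over CSS genes alone and from medians. The deposited gene models were searched for CSS identifiers and not otherwise used.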

Additional observations from a re-analysis of the deposited data

How the results depend on the processing

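Of the 294 values of the 12 tested results under alternatives, 287 kept their direction and their side of the threshold. Many alternatives changed a filter or left out a library outside the groups compared, which could move the p-value but not the fold change. Leaving out the duplicated library under both labels was the same fit as leaving out Cd2 replicate 1. With the duplicated library also kept as Cd1 replicate 3, 3 calls of CSS0006162 by limma-trend were lost. Its log2 fold change was then -2.55 (adjusted p = 0.265) for Cd1 against CK, -4.94 (adjusted p = 0.0549) for As1 against CK and 4.06 (adjusted p = 0.935) for Cd2 against Cd1, and 10 d against CK over both metals gave -3.75 (exact permutation p = 0.0833). That library has an FPKM of 230 in a group at 2.60 and 2.14, which widens the shared spread. Cd2 vs. As2 changed sign with quantile normalization (0.015), and with single libraries left out it lay between -0.36 and 0.13, while Cd1 vs. As1 lay between -0.11 and 0.60. The share of genes called moved with single libraries, from 0.784% to 4.81% for Cd1 and 0.313% to 1.95% for As1 against CK, and between the times from 0.457% to 1.82% under Cd and 0.654% to 2.35% under As, and at 15 d from 0% to 0.232% (Cd2) and 0.339% (As2) against CK. Without a given library, the log2 fold change of CSS0006162 stayed between -4.75 and -4.38 for Cd1 and between -5.18 and -4.47 for As1 against CK. From 10 d to 15 d, it stayed between 5.998 and 6.192 under Cd and between 6.12 and 6.83 under As. Limma-voom on recovered fragments gave 6.57 and 7.49 for these.

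With the replicate number as a block (replicate block), the log2 fold change was -4.76 in Cd1 vs. CK and 6.27 in Cd2 vs. Cd1, and no call of this gene changed. Over 26 same-numbered pairs of libraries, the correlation of deviations from the group means had a median of 0.009 and exceeded 0.1 in 4. Over 52 differently numbered pairs, the median was 0.016 and 13 exceeded 0.1. Deviations within such small groups cancel, which holds these correlations down, so they cannot settle whether the numbers pair the samples. At 10 d, 4 to 29 fragments per library limit the precision of the low level.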

Other observations

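The spread of CSS0006162 between replicates was described by group. In Cd2, the 3 libraries had a coefficient of variation of 2.15%, against 2.02% for counting error alone at their mean number of fragments. The SD on the log2 scale there was 0.031, and 2.21% of the 452 genes within 1.5-fold of its level had a smaller one. In As2, at a like level and depth, the coefficient of variation was 35.7%, with 2.02% for counting error, and 70.6% of 432 such genes had a smaller SD on the log2 scale. In CK it was 27.4%, with 3.51% for counting error. In As1, it was 69.6%, with 23.1% for counting error, and in Cd1, with 2 libraries, 13.5% and 19.6%. Single libraries set much of this spread. The mean FPKM was 2.63 ± 0.0454 (SD, n = 2) in As1 without replicate 3, 210 ± 36.1 (n = 2) in As2 without replicate 1 and 69.3 ± 9.17 (n = 2) in CK without replicate 1. Whether the spread differs between groups was not tested, and 2 or 3 libraries a group give it little precision.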
